A study of Homo sapiens with 6 samples.

Results

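AP-1 is a transcription factor made of pairs of basic leucine zipper (bZIP) proteins, and the genes described here are the 10 of the FOS, JUN, ATF and BATF families listed by symbol: FOS, FOSB, FOSL1, FOSL2, JUN, JUNB, JUND, ATF3, BATF2 and BATF3. They were matched by gene symbol, and all 10 were found among the 58174 genes in the files. The cells were T24, an established human bladder cancer cell line, infected with lentivirus in the pLKO.1 vector and selected with puromycin to express an shRNA stably. The 3 shRNA-NC samples carried a scrambled control hairpin, and the 3 shRNA-UBC9 samples carried a hairpin against UBC9, the enzyme that transfers SUMO to its substrates. A single UBC9 hairpin was used in the samples analysed here, so the loss of UBC9 and other effects of this hairpin cannot be told apart. PolyA RNA was sequenced and given as RPKM, reads scaled by gene length and by the mapped reads of the sample, a scale on which levels of different genes can be set side by side.

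FOS and JUN proteins pair through their leucine zippers and bind short DNA sites related to TGANTCA, while JUN proteins can also pair with one another and with ATF proteins. FOS, FOSB, JUNB and ATF3 are classical immediate early genes, switched on within minutes by growth factors, stress and cytokines through MAP kinases, and their transcripts are short lived. FOSL1 is the FOS member typically abundant in invasive carcinoma cells with active RAS signalling, and both FOS and JUN are known SUMO substrates.

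The steps of the RPKM values gave back whole reads (within 0.001 read) for all 19168 genes above 0 in at least 3 samples, with totals of 28219032 to 36058872 mapped reads per sample. For each gene the length was the smallest that made its own values whole, so this match was partly built in. With lengths from GENCODE, 49 to 57 of the 269 to 292 single-exon genes detected per sample fell on whole reads. Of the 6 epithelial markers, KRT7, KRT8, KRT18 and KRT19 were at 19.3 to 626.7 RPKM and lower in every shRNA-UBC9 sample, and KRT7 was called lower (log2 fold change -1.11). EPCAM went the other way without a call, at 0.412, 0.986 and 0.575 RPKM against 2.51, 1.27 and 0.732 RPKM, and CDH1 was listed at 0 in 5 of the 6 samples. The summed epithelial list was at 938.1 to 1107.8 RPKM in shRNA-NC and 425.8 to 563.5 RPKM in shRNA-UBC9. Of the urothelial markers, no uroplakin gene exceeded 0.126 RPKM, PPARG was called lower (mean 17.5 to 4.21 RPKM, log2 fold change -2.15), and GATA3 was lower in every shRNA-UBC9 sample without a call (7.66 to 4.26 RPKM). No leukocyte marker exceeded 0.752 RPKM. The endothelial marker CDH5 was called lower (2.87 to 0.619 RPKM, log2 fold change -2.20), while PECAM1 and VWF were at most 0.071 RPKM. The fibroblast marker COL1A1 was higher in every shRNA-UBC9 sample (0.377 to 0.818 RPKM) and was tested only because of those samples. It was not called by limma but was called higher by limma-voom on recovered reads, and DCN and PDGFRA were at most 0.037 RPKM. No mesenchymal marker was called: VIM went from a mean of 467.7 to 365.9 RPKM, CDH2 from 46.3 to 42.3 and FN1 from 591.5 to 522.8. The groups overlapped for VIM and FN1. The part of these markers in the AP-1 values was not tested.

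Of the AP-1 genes 4 were called: BATF2, FOS, JUNB and FOSB were higher in shRNA-UBC9, and none of the 10 was called lower. A call required an absolute log2 fold change above 1 and a Benjamini-Hochberg adjusted p-value below 0.05 in limma on log2(RPKM + 0.1), over the 12428 genes that reached 0.5 RPKM in 3 or more samples. The same rule called 5.2% of all tested genes higher and 2.7% lower. At an unadjusted p below 0.05, with no fold threshold, 7 AP-1 genes were higher and none lower, against 23.8% and 23.2% of all tested genes. Limma-voom on recovered reads also called 4 higher and none lower, against 5.54% and 2.97% of all tested genes. Of the 10 genes 9 were tested. FOS, FOSB and BATF2 met the expression minimum in 0, 1 and 2 of their shRNA-NC samples, so they were tested only because of their shRNA-UBC9 samples, and for these 3 calls a difference was partly built in. Among all tested genes 640 were tested only because of their shRNA-UBC9 samples, and 215 of these 640 were called higher. JUNB was the 1 called gene that passed on its shRNA-NC samples alone, and BATF3 fell below the minimum. By the adjusted p-value alone, with no fold threshold, 7 of the 10 were higher, against 18.8% of all tested genes. In the same 7 genes every shRNA-UBC9 sample lay above every shRNA-NC sample, against 25.7% of all tested genes. FOS, FOSB and BATF2 were among these 7. With 3 samples a group, the smallest p of an exact two-sided permutation test is 0.1.

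**Figure D1:**
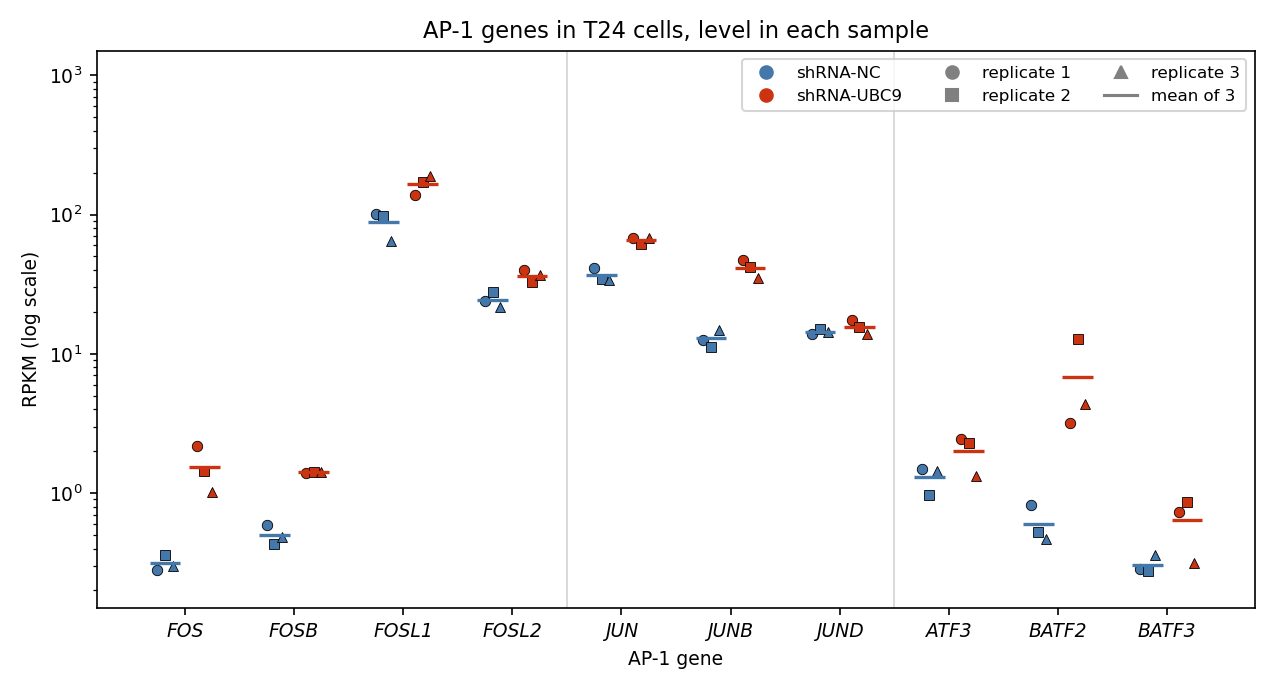
RPKM of each AP-1 gene (log axis) in each of the 6 samples, with symbols for replicates and a bar for the mean of 3. FOSL1 and JUN were the most abundant in both groups, and the groups overlapped for JUND, ATF3 and BATF3 only.

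In shRNA-NC the order of levels was FOSL1 (mean 87.7 RPKM), JUN (36.6), FOSL2 (24.4), JUND (14.4), JUNB (12.9), ATF3 (1.30), BATF2 (0.604), FOSB (0.5004), FOS (0.312) and BATF3 (0.307). The sample ranges of JUND and JUNB, of BATF2 and FOSB, and of FOS and BATF3 overlapped, so these neighbours did not separate. In shRNA-UBC9 the order was FOSL1 (166.8 RPKM), JUN (65.4), JUNB (41.1), FOSL2 (36.4), JUND (15.6), BATF2 (6.82), ATF3 (2.02), FOS (1.54), FOSB (1.41) and BATF3 (0.639). JUNB overlapped FOSL2 there, and ATF3, FOS and FOSB overlapped as neighbours. By mean level among all 58174 genes, FOSL1 ranked 365 in shRNA-NC and 174 in shRNA-UBC9, JUNB ranked 3347 and 928, and FOS ranked 12947 and 10357.

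FOS (chr14:75278826-75282230, plus strand, GRCh38), the prototype immediate early subunit, had 0.279, 0.357 and 0.301 RPKM in shRNA-NC and 2.17, 1.44 and 1.02 RPKM in shRNA-UBC9. These values rest on 27, 40 and 33 reads and on 253, 164 and 93 reads. The mean was 4.93-fold higher in shRNA-UBC9, with a log2 fold change of 1.94 (SE 0.27, adjusted p = 0.00118, limma). The lowest shRNA-UBC9 sample was still above every shRNA-NC sample, and replicate 1 was the highest. Adding 1 instead of 0.1 RPKM before the logarithm gave FOS a log2 fold change of 0.93, and the call was lost. With limma-voom on the recovered reads, which needs no RPKM pseudocount, it was 2.25 (SE 0.35, adjusted p = 0.00166).

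FOSB (chr19:45467995-45475179, plus strand), the closest relative of FOS and likewise an immediate early gene, had 0.585, 0.432 and 0.484 RPKM in shRNA-NC against 1.39, 1.41 and 1.42 RPKM in shRNA-UBC9. The 3 shRNA-UBC9 samples were nearly alike, with an SD of 0.0149 RPKM. They rest on 279, 276 and 223 reads, against 97, 83 and 91 reads in shRNA-NC. The spread due to counting these reads was not tested. The mean was 2.82-fold higher, with a log2 fold change of 1.34 (SE 0.16, adjusted p = 0.000691, limma). Adding 1 RPKM gave FOSB 0.68, under the threshold, and with limma-voom on reads it was 1.51. Both FOS and FOSB thus rose from low levels, and neither exceeded 2.17 RPKM in any sample.

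FOSL1 (chr11:65892049-65900573, minus strand) encodes FRA-1, a FOS relative without the transactivation domain of FOS. It had 100.8, 98.0 and 64.4 RPKM in shRNA-NC and 138.0, 172.3 and 190.3 RPKM in shRNA-UBC9. The groups did not overlap, and shRNA-NC replicate 3 was the lowest sample. The log2 fold change was 0.94 (95% interval 0.51 to 1.37, adjusted p = 0.00595, limma), just under the fold threshold. It passed the threshold without shRNA-NC replicate 1 (1.06), without shRNA-NC replicate 2 (1.04) or without shRNA-UBC9 replicate 1 (1.07), and was 0.73 without shRNA-NC replicate 3. FOSL1P1, a processed pseudogene of FOSL1, was listed at 0 in all 6 samples.

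FOSL2 (chr2:28392448-28417317, plus strand), which encodes FRA-2, had 23.9, 27.6 and 21.6 RPKM in shRNA-NC and 39.7, 32.8 and 36.6 RPKM in shRNA-UBC9. All shRNA-UBC9 samples were higher, by a log2 fold change of 0.58 (95% interval 0.31 to 0.84, adjusted p = 0.00615, limma), an interval that lies wholly below the fold threshold.

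JUNB (chr19:12791486-12793315, plus strand), a JUN relative induced by cytokines and growth factors, had 12.6, 11.2 and 14.9 RPKM in shRNA-NC and 46.8, 41.7 and 34.8 RPKM in shRNA-UBC9. The mean was 3.18-fold higher, with a log2 fold change of 1.66 (SE 0.14, adjusted p = 0.000135, limma). Its standard error was the smallest of the 4 calls in this fit. Without the intensity trend of limma that of FOSB was smaller (0.11 against 0.15 for JUNB). JUNB was called in all 18 alternative settings, and BATF2 in the 17 in which it was tested. The settings that only loosened the call rule reused the main fit, so they could not lose a call. The exon of JUNB overlaps an exon of HOOK2 on the other strand. HOOK2 had 2.15 to 2.45 RPKM over the 6 samples, with a log2 fold change of -0.08 (adjusted p = 0.582, limma). No other AP-1 gene shared an exon with another annotated gene.

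JUN (chr1:58776845-58784048, minus strand), the founding partner of FOS, had 41.5, 34.3 and 34.0 RPKM in shRNA-NC and 67.6, 61.4 and 67.3 RPKM in shRNA-UBC9. The groups were well separated, yet the log2 fold change was 0.84 (95% interval 0.61 to 1.07, adjusted p = 0.000638, limma), so the gene was not called. JUND (chr19:18279694-18281622, minus strand), the JUN member usually expressed at a steady level, had 13.8, 15.02 and 14.4 RPKM in shRNA-NC and 17.5, 15.5 and 13.9 RPKM in shRNA-UBC9. The groups overlapped, and the 95% interval of its log2 fold change ran from -0.12 to 0.35 (adjusted p = 0.424, limma).

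**Figure D2:**
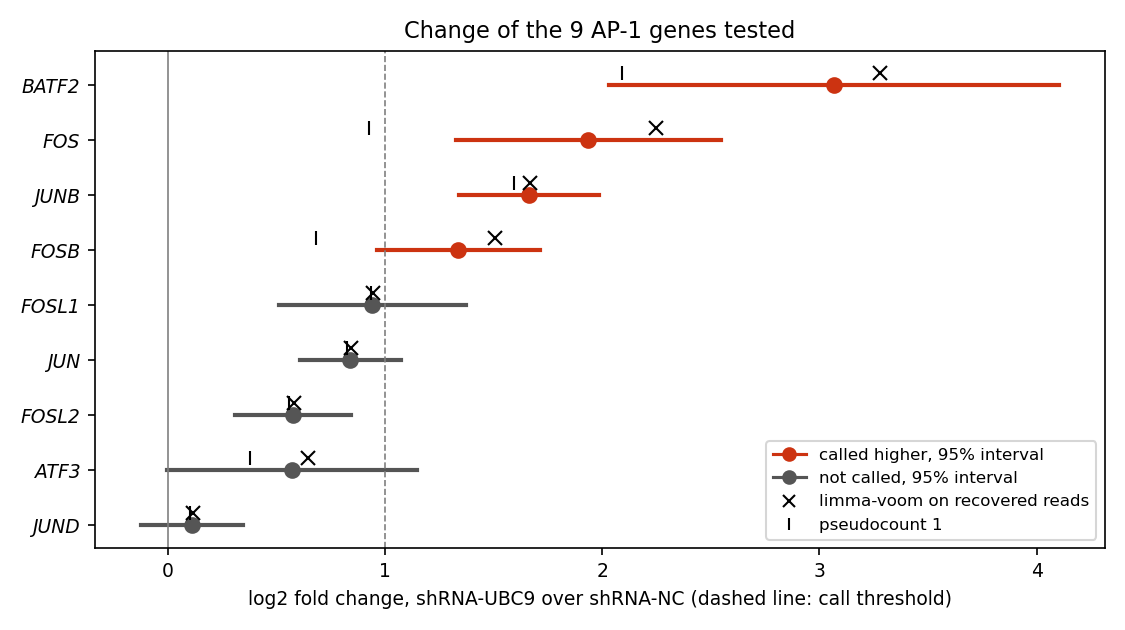
Log2 fold change of the 9 tested AP-1 genes (dots) with 95% intervals from limma, with crosses for limma-voom on recovered reads and ticks for a pseudocount of 1. BATF2, FOS, JUNB and FOSB lay above the threshold of 1, and FOS and FOSB fell below it with the larger pseudocount.

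The promoter windows of the 4 called genes are shown with those of JUN, the most abundant JUN family transcript, and JUND, whose groups overlapped. Each is the 250 bases before the RefSeq start (GRCh38.p14), 5′ to 3′ on the gene's strand. The RefSeq start of BATF2 lies inside the gene as GENCODE annotates it. Capitals mark matches on either strand to TGACG (a CRE half-site), TGACGTCA (a full CRE, which holds a half-site on each strand) or TGACATCA (an AP-1 site first known from JUN).

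FOS (chr14:75278578-75278827, plus strand): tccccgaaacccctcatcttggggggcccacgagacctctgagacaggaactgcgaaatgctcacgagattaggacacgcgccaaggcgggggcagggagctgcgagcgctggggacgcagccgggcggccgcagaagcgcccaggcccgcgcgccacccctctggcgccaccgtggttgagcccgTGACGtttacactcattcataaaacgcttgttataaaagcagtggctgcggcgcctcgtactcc

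FOSB (chr19:45467746-45467995, plus strand): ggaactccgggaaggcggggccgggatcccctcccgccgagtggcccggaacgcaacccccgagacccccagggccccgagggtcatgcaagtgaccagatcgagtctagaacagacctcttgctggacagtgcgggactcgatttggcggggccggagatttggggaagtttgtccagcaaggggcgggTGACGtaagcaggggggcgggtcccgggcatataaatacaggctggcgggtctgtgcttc

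JUNB (chr19:12791236-12791485, plus strand): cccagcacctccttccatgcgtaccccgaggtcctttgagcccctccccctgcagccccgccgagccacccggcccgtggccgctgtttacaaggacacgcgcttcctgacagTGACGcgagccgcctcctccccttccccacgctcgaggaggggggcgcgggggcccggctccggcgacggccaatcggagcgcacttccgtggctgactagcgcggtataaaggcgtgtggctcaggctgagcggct

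BATF2 (chr11:64990278-64990527, minus strand): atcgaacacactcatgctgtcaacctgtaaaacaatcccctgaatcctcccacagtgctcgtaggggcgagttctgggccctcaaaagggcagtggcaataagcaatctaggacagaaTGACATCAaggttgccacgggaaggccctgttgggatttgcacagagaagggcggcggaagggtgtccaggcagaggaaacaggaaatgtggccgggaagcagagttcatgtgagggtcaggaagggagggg

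JUN (chr1:58784048-58784297, minus strand): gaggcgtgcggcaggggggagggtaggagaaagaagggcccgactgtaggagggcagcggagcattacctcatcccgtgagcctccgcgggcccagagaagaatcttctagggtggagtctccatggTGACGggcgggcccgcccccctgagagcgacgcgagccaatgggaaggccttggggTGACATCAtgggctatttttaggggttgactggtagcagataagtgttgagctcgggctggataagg

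JUND (chr19:18281623-18281872, minus strand): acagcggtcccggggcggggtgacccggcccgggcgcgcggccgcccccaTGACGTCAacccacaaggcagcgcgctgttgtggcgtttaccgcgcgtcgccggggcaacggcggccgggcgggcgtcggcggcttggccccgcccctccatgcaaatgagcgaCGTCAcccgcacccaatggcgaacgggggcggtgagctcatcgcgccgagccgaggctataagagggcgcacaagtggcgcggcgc

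TGACG lay at positions -64 to -60 before the start of FOS and at -60 to -56 before that of FOSB. In JUNB it lay at -137 to -133 and in JUN at -123 to -119. JUND held the full CRE at -200 to -193 and a further half-site at -86 to -82. TGACATCA lay at -67 to -60 in JUN and at -132 to -125 in BATF2. Windows with TGACG made up 21.22% of the 35116 RefSeq windows of this length, those with TGACGTCA 1.65% and those with TGACATCA 2.37%. RefSeq windows were found for 8 of the 10 genes, not for FOSL1 or BATF3. FOSL2 held TGACG at -201 to -197 and at -66 to -62, and 1 of the 2 windows of ATF3 held TGACATCA at -123 to -116. Searches on both strands for TGANTCA (6.57% of windows), the interferon-response core GAAANNGAAA (3.02%), the STAT site TTCNNNGAA (6.57%), the CArG box (1.16%) and the NF-kappaB site (9.96%) gave no match in any window of these genes. These letters are thus not in the 250 bases searched, which for BATF2 and FOSL2 did not include the bases before the GENCODE start. Called and uncalled members both held TGACG, so the half-site did not separate them.

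ATF3 (chr1:212565334-212620777, plus strand), a stress-induced factor that can repress as well as activate, had 1.501, 0.972 and 1.43 RPKM in shRNA-NC and 2.46, 2.28 and 1.32 RPKM in shRNA-UBC9. Replicate 3 of shRNA-UBC9 fell within the shRNA-NC range. The log2 fold change was 0.57 (95% interval -0.000895 to 1.15, adjusted p = 0.107, limma). Without shRNA-UBC9 replicate 3 it was 0.84 with an adjusted p of 0.0158 (limma), still under the fold threshold.

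BATF2 (chr11:64987945-64997018, minus strand), an interferon-induced bZIP factor that can pair with JUN, had 0.815, 0.530 and 0.467 RPKM in shRNA-NC and 3.21, 12.9 and 4.39 RPKM in shRNA-UBC9. The groups did not overlap, and the mean was 11.3-fold higher, with a log2 fold change of 3.07 (SE 0.45, adjusted p = 0.0016, limma). By absolute log2 fold change BATF2 ranked 100 of the 12428 tested genes. Replicate 2 stood above the other shRNA-UBC9 samples, with 1061 reads against 271 and 290, and without it the log2 fold change was 2.48 (adjusted p = 0.000662, limma). The interferon-induced genes MX1, IFIT1 and ISG15, chosen after their values were seen, were also highest in that sample, at 127.2, 178.3 and 1025.5 RPKM. In the other shRNA-UBC9 samples they had 48.2 and 58.0, 72.0 and 61.4, and 480.0 and 501.5 RPKM. Their part in the BATF2 result was not tested.

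BATF3 (chr1:212686417-212699840, minus strand), known as a factor of dendritic cells, had 0.284, 0.277 and 0.359 RPKM in shRNA-NC and 0.736, 0.868 and 0.313 RPKM in shRNA-UBC9. These were 23, 26 and 33 reads against 72, 83 and 24 reads. Replicate 3 of shRNA-UBC9 lay within the shRNA-NC range, while the other two lay above it. With no filter on low values its log2 fold change was 0.78 (95% interval -0.05 to 1.602, adjusted p = 0.185, limma).

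The make-up of the 2 core families was then described as each gene's share of the summed RPKM of its family, with no test. FOSL1 held most of the FOS family in both groups, at 77.3% ± 3.0 in shRNA-NC and 80.6% ± 3.9 in shRNA-UBC9 (SD, n = 3). FOSL2 held 21.9% ± 2.9 and 17.9% ± 3.5 (SD, n = 3). FOS and FOSB were minor, with at most 1.20% for FOS and 0.769% for FOSB in any sample. The family sum was 112.9 ± 22.7 RPKM in shRNA-NC and 206.2 ± 24.1 RPKM in shRNA-UBC9 (SD, n = 3). Of the gain of 93.3 RPKM, FOSL1 supplied 84.9% and FOS 1.32%. The gene with the largest called fold change in the family, FOS, thus added little to its summed level.

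In the JUN family the shares of JUNB and JUND did not overlap between the groups. JUNB held 18.6%, 18.5% and 23.5% in the shRNA-NC samples and 35.5%, 35.1% and 29.97% in the shRNA-UBC9 samples. JUND held 20.4%, 24.8% and 22.7% against 13.3%, 13.1% and 12.0%. The RPKM of JUND itself overlapped between the groups (mean 14.4 and 15.6). A share also depends on the other genes of the family, and JUN and JUNB were higher in every shRNA-UBC9 sample. JUN held 57.1% ± 3.7 and 53.7% ± 3.8 (SD, n = 3), and its shares overlapped. The family sum was 63.9 ± 3.8 RPKM in shRNA-NC and 122.2 ± 8.6 RPKM in shRNA-UBC9 (SD, n = 3). JUN supplied 49.5% of the gain of 58.2 RPKM and JUNB 48.4%, although only JUNB passed the fold threshold.

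**Figure D3:**
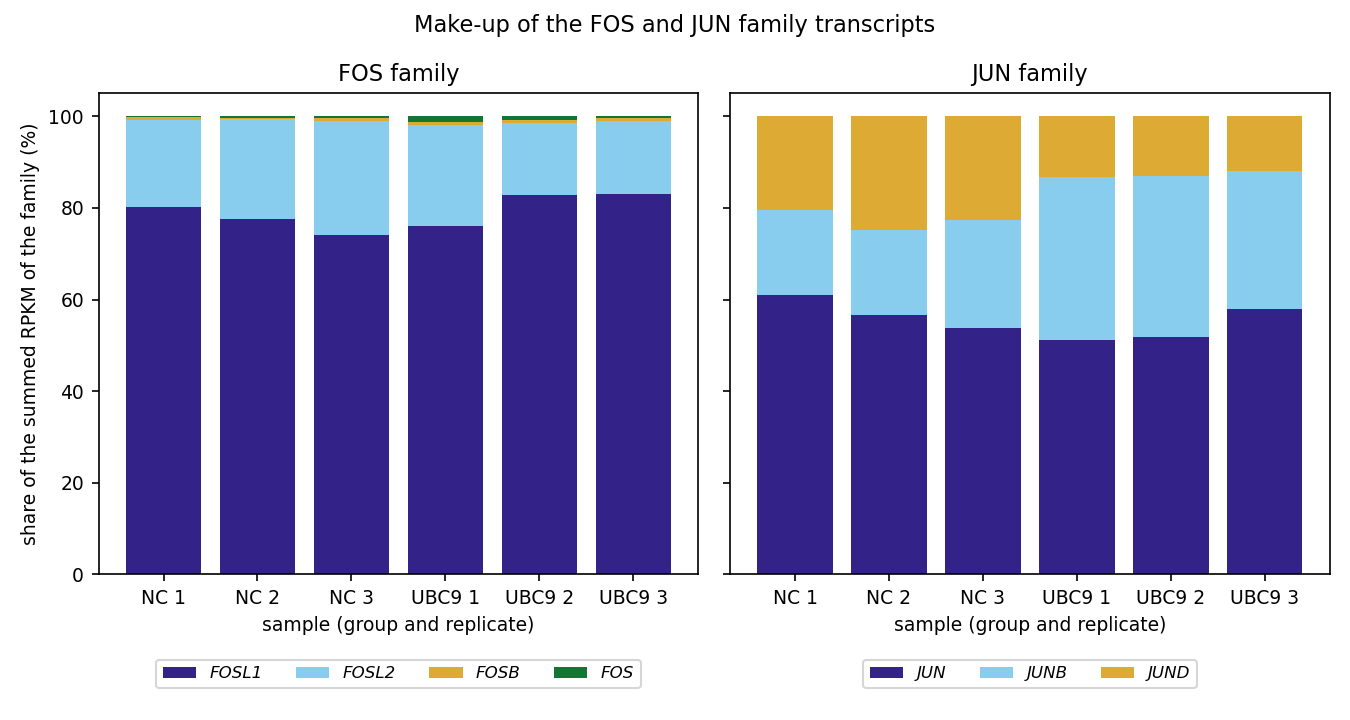
Share of each gene in the summed RPKM of the FOS family (left) and of the JUN family (right) in each sample. FOSL1 held at least 74.2% of the FOS family in every sample, and in the shRNA-UBC9 samples the JUNB share was larger and the JUND share smaller than in any shRNA-NC sample. The RPKM of JUND itself overlapped between the groups.

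Genes around AP-1 were examined as lists. Each count is of genes called, beside the 5.2% higher and 2.7% lower of all tested genes (23.8% and 23.2% at an unadjusted p below 0.05, and 5.54% and 2.97% by limma-voom) and an all-gene median log2 fold change of 0.00. Of 30 other bZIP genes 23 were tested, and 6 were called higher and none lower (median log2 fold change 0.40). At an unadjusted p below 0.05, 15 were higher and 4 lower, and limma-voom also called 6 higher and none lower. Of the 6 called genes 1, CREB5, was tested only because of its shRNA-UBC9 samples. CEBPB, a bZIP factor of inflammatory gene expression, rose from 14.6, 17.4 and 13.98 RPKM to 69.5, 82.5 and 59.8 RPKM (log2 fold change 2.19, adjusted p = 3.06e-05, limma). MAFF, a small MAF protein, had 8.18 to 9.90 RPKM in shRNA-NC and 32.5 to 41.2 RPKM in shRNA-UBC9 (log2 fold change 1.95). BACH1, a repressor of oxidative stress genes, had a log2 fold change of 1.61, with 9.37 to 22.4 RPKM in shRNA-UBC9 against 4.01 to 5.16 RPKM. BATF itself was listed at 0 in all shRNA-NC samples and at no more than 0.029 RPKM in shRNA-UBC9.

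Of 36 tested genes of the RAS and MAP kinase cascade none was called higher and 1 lower (median log2 fold change -0.04), against 9 higher and 4 lower at an unadjusted p below 0.05. By limma-voom the calls were 0 higher and 2 lower. The gene called by limma was NRAS, a RAS protein, with 28.0, 29.4 and 28.7 RPKM in shRNA-NC and 13.3, 13.4 and 14.8 RPKM in shRNA-UBC9 (log2 fold change -1.05, adjusted p = 9.51e-05, limma). Of 10 tested factors acting on AP-1 promoters, such as SRF and the ELK proteins, none was called in either direction, and their log2 fold changes ran from -0.83 to 0.59. At an unadjusted p below 0.05, 1 of the 10 was higher and 2 were lower, and limma-voom called none. Of 13 tested genes of AP-1 protein turnover and cofactors 1 was called, TRIB1, a pseudokinase adaptor of the COP1 ubiquitin ligase, with 2.46 to 3.18 RPKM in shRNA-NC and 5.87 to 8.67 RPKM in shRNA-UBC9 (log2 fold change 1.32). At an unadjusted p below 0.05, 3 of these 13 were higher and 4 lower, and limma-voom also called 1 higher and none lower. The files hold transcripts only, so kinase activity and AP-1 protein were not measured here.

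Of 29 other immediate early genes 23 were tested, 9 were called higher and none lower, with a median log2 fold change of 0.92. At an unadjusted p below 0.05, 15 were higher and 2 lower, and limma-voom also called 9 higher and none lower. Of the 23, 2 (NR4A1 and NR4A2) were tested only because of their shRNA-UBC9 samples, and 1 of these was called. EGR1, a zinc finger factor induced together with FOS in many cells, had 1.10, 2.27 and 1.02 RPKM in shRNA-NC and 51.3, 17.8 and 15.9 RPKM in shRNA-UBC9 (log2 fold change 4.06, adjusted p = 0.000464, limma). As for FOS, its highest sample was shRNA-UBC9 replicate 1. HBEGF, a ligand of the EGF receptor, had 5.24 to 8.75 RPKM in shRNA-NC and 41.1 to 51.6 RPKM in shRNA-UBC9 (log2 fold change 2.79), and DUSP5, a nuclear ERK phosphatase, had 5.50 to 6.82 and 24.7 to 29.5 RPKM (log2 fold change 2.12).

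Textbook AP-1 target genes were the list with the most calls. Of 30 listed genes 21 were tested, 15 were called higher and none lower, with a median log2 fold change of 2.42. HBEGF, already counted in the immediate early list, was among the 15. At an unadjusted p below 0.05, 17 were higher and 2 lower, and limma-voom also called 15 higher and none lower. Of the 15 called genes 5 (MMP1, MMP3, MMP10, MMP13 and SERPINB2) were tested only because of their shRNA-UBC9 samples, so for these a difference was partly built in. The list was drawn up with earlier results of these samples known, and is not independent evidence of its direction. SERPINB2, an inhibitor of plasminogen activators, had 0.378, 2.13 and 0.344 RPKM in shRNA-NC and 501.0, 285.6 and 239.1 RPKM in shRNA-UBC9. MMP1, interstitial collagenase, whose promoter holds a classical AP-1 site, had 0.221, 0.234 and 0.300 RPKM against 80.6, 67.8 and 39.8 RPKM. MMP3, stromelysin-1, had at most 0.0289 RPKM in shRNA-NC and 13.3, 37.6 and 16.2 RPKM in shRNA-UBC9. All 3 were called (adjusted p of 4.41e-05, 2.88e-06 and 1.41e-05, limma), and the fold changes of genes this near 0 depend on the pseudocount.

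**Figure D4:**
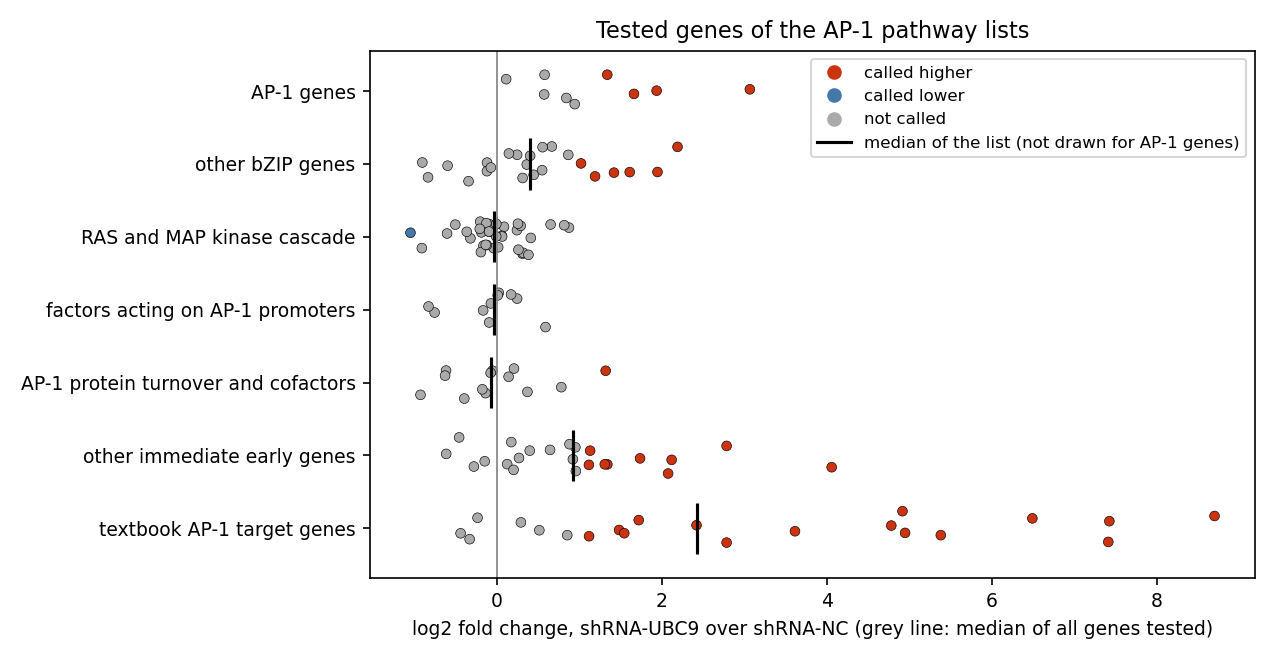
Log2 fold change of each tested gene in the AP-1 gene list and in 6 lists around it, colored by call. Bars mark the medians of the 6 lists (none is drawn for the AP-1 genes), and a grey line marks the median of all tested genes. The target list held 15 calls above 0, the immediate early list 9 and the other bZIP list 6, while the kinase, promoter factor and turnover lists held 1 call each at most. HBEGF is counted in both the target and the immediate early list, and CREB1, not called, is in both the other bZIP and the promoter factor list.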

How the data were processed

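T24 samples (3 shRNA-NC, 3 shRNA-UBC9) were grouped and numbered by their titles. The authors trimmed the reads and mapped them to GRCh38 with CLC Biomedical Genomics Workbench at its defaults, and deposited the RPKM of 58174 genes for each sample. The annotation release, strand setting and treatment of multi-mapping reads are not given in the sources used here. RPKM is not corrected for RNA composition. Nothing states that the samples of a group came from separate cultures, so p-values measure the spread between these samples, which may be technical.

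The 12428 genes that reached 0.5 RPKM in 3 or more samples were compared with limma 3.58.1 (R 4.3.3) on log2(RPKM + 0.1), with an intensity trend and Benjamini-Hochberg adjustment over all tested genes. Fold changes on this scale understate those of low genes. Relative depth was solved from the RPKM steps of single-exon genes of GENCODE release 44. The length of each gene was then set to the smallest that gave whole reads in every sample. Such a length was found for 100% of the genes above 0 in at least 3 samples. Counting error is covered only as far as replicates show it.

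The level of the targeted gene is not reported here. All 10 AP-1 genes were named, and from each other list up to 3 called genes per direction by largest absolute log2 fold change. The members and lists were chosen with earlier results of these data known. Positions are from GENCODE 44 and promoter windows from RefSeq. The fit was tested on simulated data. Alternatives were other pseudocounts, filters, scalings and call rules, a fit without the trend, a block for the replicate number, omission of each replicate in turn and, chosen after seeing the data, limma-voom on recovered reads.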

Additional observations from a re-analysis of the deposited data

How the results depend on the processing

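Directions of the 9 tested AP-1 genes were the same under all alternatives in which they were tested. Alternatives that changed only the call rule keep the direction by design. A pseudocount of 1 left 2 AP-1 genes called higher, BATF2 and JUNB, with FOS at 0.93 and FOSB at 0.68 on the log2 scale, and it called 391 genes higher and 161 lower among all genes, against 646 and 335. With an RPKM of at least 1 required in every sample, 1 AP-1 gene, JUNB, was called, with 342 higher and 210 lower among all genes, because FOS, FOSB, BATF2 and ATF3 were then not tested. With an adjusted p below 0.05 alone, 7 AP-1 genes were higher, FOSL1 (0.94), FOSL2 (0.58) and JUN (0.84) being added, and 2339 genes were higher and 2237 lower. Without each replicate in turn, 4 to 5 AP-1 genes were called higher, and FOSL1 ranged from 0.73 to 1.07. The samples of both groups share the numbers 1 to 3, but the deviations of same-numbered samples correlated at -0.37, 0.07 and -0.17, so the numbers were not taken as pairs. Between differently numbered samples the correlations ran from -0.32 to 0.53, the highest being shRNA-NC replicate 1 with shRNA-UBC9 replicate 3. A fit with the replicate block called the same number of AP-1 genes (4), with 642 genes higher and 332 lower, and changed no call of an AP-1 gene. Depth limits BATF3 most, at 23 to 83 reads per sample.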

Other observations

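JDP2, a bZIP protein that pairs with JUN and is known as a repressor at AP-1 sites, went the other way from the AP-1 genes that were called, and was picked after its values were seen. It had 1.73, 0.996 and 1.35 RPKM in shRNA-NC and 0.703, 0.692 and 0.705 RPKM in shRNA-UBC9. The groups did not overlap, but its log2 fold change of -0.84 (SE 0.20, adjusted p = 0.0138, limma) was short of the fold threshold. ATF2, also picked after its values were seen and a JUN partner that is not an immediate early gene, had 7.60, 8.56 and 8.64 RPKM in shRNA-NC and 11.0, 9.18 and 9.30 RPKM in shRNA-UBC9. Its groups did not overlap, and its log2 fold change was 0.24 (SE 0.10, adjusted p = 0.0996, limma).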
